A study of Mus musculus with 6 samples.

Results

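The named long noncoding RNAs examined here were Malat1, Neat1, Gas5, Snhg1, Snhg3, Kcnq1ot1, Airn and Dnm3os. These 8 transcripts were chosen by name, at a time when earlier results of these data were known. A probe was taken as a member when its accession belonged to 1 of these genes. This gave 11 of the 55681 probes on the array, for 7 of the 8 genes. No probe carried an accession that the gene table used here lists for Gas5, so Gas5 was not analysed here. Malat1, Neat1, Snhg1 and Snhg3 had 1 probe each, Kcnq1ot1 and Airn had 2 each, and Dnm3os had 3.

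RNA was taken from sorted mammary epithelial cells of female C57Bl6J mice, and the labels name no transgene or treatment in either group. The fetal group was 3 samples of E18.5 cells that were CD31-CD45-Ter119-EpCAM++CD49f+. The adult basal group was 3 samples from mice aged 8 to 12 weeks, which were EpCAM+CD49f+ and lacked CD31, CD45, Ter119 and BP-1. The gates therefore differed in EpCAM level and in the use of BP-1, and the methods give an overnight digestion for adult glands and a much shorter one for fetal glands. Neither difference can be told apart from age. The labels call the samples biological replicates and do not say how many animals went into each. Each sample was hybridized to 1 one-color Agilent array, so 6 arrays were compared. Between 76.4% and 83.3% of probes on an array were well above background, and no spot was saturated. The arrays lay on 2 slides, and fetal replicate 1 with adult basal replicates 1 and 3 shared slide 1.

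A long noncoding RNA is a transcript that acts, where it acts at all, without being translated. Malat1 and Neat1 are neighbouring nuclear transcripts: Malat1 collects in nuclear speckles, where splicing factors are stored, and Neat1 is the scaffold of paraspeckles. Gas5, Snhg1 and Snhg3 are host genes whose introns hold small nucleolar RNAs (snoRNAs) and whose spliced exons are mostly degraded in the cytoplasm. Kcnq1ot1 and Airn are imprinted antisense RNAs made from the paternal chromosome, where they silence genes around them. Dnm3os runs antisense to Dnm3 and carries 2 microRNA precursors. In the mammary gland, loss of Neat1 is known to disturb ductal growth and lactation in mice.

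The sorted populations were checked against marker genes. Of 11 basal mammary markers, 8 were higher in adult basal cells by the criterion given below and none was higher in fetal cells, with the largest fold changes for Myh11 (−8.63, log2 fold change of fetal over adult basal) and Cnn1 (−6.01), both smooth muscle contractile genes. Of 12 luminal markers, 5 were higher in fetal cells, led by the transcription factors Elf5 (7.55) and Foxa1 (6.46), and none was called higher in adult basal cells. With Benjamini-Hochberg and the 2-fold limit, 6 luminal markers were higher in fetal cells and 2 in adult basal cells. With 1 array left out, Foxa1 lost its call in 4 of 6 cases (Holm-adjusted p up to 0.339) and Cnn1 in 1, without adult basal replicate 1 (0.0549). No listed basal or luminal marker was without signal above background in either group. The groups therefore differed in both kinds of epithelial RNA. Of the cell types outside the mammary epithelium, no endothelial, leukocyte, erythroid, adipocyte or epidermal marker was called with Holm. With Benjamini-Hochberg and the 2-fold limit, 3 endothelial and 3 leukocyte markers were higher in adult basal cells and none in fetal cells. By that rule 3 epidermal markers and 1 erythroid marker were higher in fetal cells and 1 epidermal marker was higher in adult basal cells. Of 7 tested salivary gland markers, 2 were called higher in fetal cells, Dcpp1 (8.60) and Smr3a, which was too dim to measure in adult basal cells. With Benjamini-Hochberg and the 2-fold limit, 2 salivary markers were higher in fetal and 1 higher in adult basal cells, and the list median was 0.10. The summed signal of 8 salivary markers was 6405, 7016 and 6920 in fetal and 1114, 1491 and 1117 in adult basal replicates 1 to 3, the brightest probe being that of Dcpp1 in fetal and of Prb1 in adult basal cells, and Smgc not above background in either. Their part in the values of the noncoding RNAs was not tested. All results below are from bulk RNA, in which fewer cells of a type and less RNA per cell cannot be told apart.

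The sequences that bear on the members are given first. The 2 microRNA genes within Dnm3os are Mir199a-2 and Mir214. The array had no probe that matched either, so the values below are of the host transcript. They are shown because they are the known products of this RNA. The 4 mature sequences are from RefSeq (GRCm38.p6, plus strand of chromosome 1), 5′ to 3′, with the seed, bases 2 to 8, in capitals. They have 4 different seeds.
mmu-miR-199a-5p, chr1:162217844-162217866: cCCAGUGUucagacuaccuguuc
mmu-miR-199a-3p, chr1:162217883-162217904: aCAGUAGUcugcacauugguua
mmu-miR-214-5p, chr1:162223397-162223418: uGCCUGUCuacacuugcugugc
mmu-miR-214-3p, chr1:162223438-162223459: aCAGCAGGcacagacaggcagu

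RefSeq start windows, 250 bases before to 50 bases after the transcript start, were available for 7 of the 8 members, and none was listed for Neat1. The windows were searched on both strands for the letters CCAAT and TATAAA, and the number of CpG dinucleotides was counted. Over 32851 windows of the same length, 37.4% held CCAAT, 3.37% held it 3 or more times, 13.6% held TATAAA, and the median number of CpGs was 7. Of the imprinted pair, the Kcnq1ot1 window held 3 CCAAT and 9 CpGs, and the Airn window held 1 TATAAA on the other strand, no CCAAT and 3 CpGs. These are shown because the 2 RNAs start inside the introns of the genes they run against. The capitals mark the matched letters, the windows are read along the strand of the RNA, and positions count from the start as 1 with no position 0.
Kcnq1ot1, chr7:143296498-143296797, minus strand, CCAAT beginning at −188, −148 and −67 from the start: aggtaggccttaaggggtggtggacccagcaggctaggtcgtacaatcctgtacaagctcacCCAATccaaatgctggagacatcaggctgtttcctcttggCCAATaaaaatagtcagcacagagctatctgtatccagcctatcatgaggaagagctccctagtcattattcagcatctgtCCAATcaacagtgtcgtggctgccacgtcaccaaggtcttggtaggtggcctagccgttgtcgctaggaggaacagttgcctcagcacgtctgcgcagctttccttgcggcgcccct
Airn, chr17:12741061-12741360, plus strand, TATAAA on the other strand beginning at −132: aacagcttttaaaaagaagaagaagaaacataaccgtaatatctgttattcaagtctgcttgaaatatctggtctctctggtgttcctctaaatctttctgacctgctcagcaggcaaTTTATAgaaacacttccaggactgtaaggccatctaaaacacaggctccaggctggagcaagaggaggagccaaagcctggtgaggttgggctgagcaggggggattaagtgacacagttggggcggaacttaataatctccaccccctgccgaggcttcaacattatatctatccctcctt
The windows of the 2 measured snoRNA hosts are shown because their values are set side by side in what follows. Snhg1 held 25 CpGs and 1 TATAAA on the other strand, and Snhg3 held 16 CpGs, 1 CCAAT and 1 TATAAA.
Snhg1, chr19:8723237-8723536, plus strand, TATAAA on the other strand beginning at −29: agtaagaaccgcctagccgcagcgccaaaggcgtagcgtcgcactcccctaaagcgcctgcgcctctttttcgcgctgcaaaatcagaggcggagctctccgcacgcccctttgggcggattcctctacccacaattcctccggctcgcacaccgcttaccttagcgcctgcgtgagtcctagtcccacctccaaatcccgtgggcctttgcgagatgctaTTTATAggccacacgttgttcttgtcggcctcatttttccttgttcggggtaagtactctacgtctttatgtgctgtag
Snhg3, chr4:132353637-132353936, minus strand, CCAAT beginning at −57 and TATAAA beginning at 23: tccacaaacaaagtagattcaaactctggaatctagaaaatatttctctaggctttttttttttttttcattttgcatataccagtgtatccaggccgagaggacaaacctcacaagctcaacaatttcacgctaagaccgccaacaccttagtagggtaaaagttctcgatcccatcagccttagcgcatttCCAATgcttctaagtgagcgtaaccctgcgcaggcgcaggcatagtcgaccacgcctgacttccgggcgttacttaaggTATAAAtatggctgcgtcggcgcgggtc
The windows of Malat1 (10 CpGs), Dnm3os (5 CpGs) and Gas5 held neither motif. These matches describe letters in the windows and not factor binding, which was not measured here.

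The comparison asked how the level of each noncoding RNA differed between E18.5 fetal and adult basal cells. Values are log2 of the quantile normalized signal. A log2 difference of 1 is a 2-fold change, and levels of different probes are not compared because each probe has its own response. Of the 11 member probes, 9 passed the filter on low signal, and each of these exceeded background clearly on the 6 arrays. The other 2 probes, both of Dnm3os, did so on no array. The criterion of the study's methods was a 2-fold difference or more with a Holm-adjusted p in limma no higher than 0.05, and 1 of the 9 probes was called by it. This was a probe of Airn that was higher in fetal cells. Of all 37830 probes tested, 5.56% were called (2.98% higher in fetal and 2.58% higher in adult basal cells), so 1 of 9 is near the background. With the Benjamini-Hochberg adjustment in place of Holm, 2 of 9 probes passed, the Airn probe and Neat1, where the background was 22.5%. Without a limit on fold, 7 of 9 passed the Benjamini-Hochberg adjustment at 0.05, against 49.0% of all probes. The 3 values of each group did not overlap for 7 of the 9 probes, against 60.2% of all probes. Taking the brightest probe of each gene, none of 7 genes was called, where the background over 16091 genes was 8.40%. In the same limma fit, 5 of the 7 had an unadjusted p under 0.05 (7 of the 9 probes, where 54.9% of all probes did), and 1, Neat1, passed Benjamini-Hochberg with the 2-fold limit, against 29.4% of all genes. The median log2 fold change of the 7 genes was −0.47, and that of all tested genes was −0.04.

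**Figure D1:**
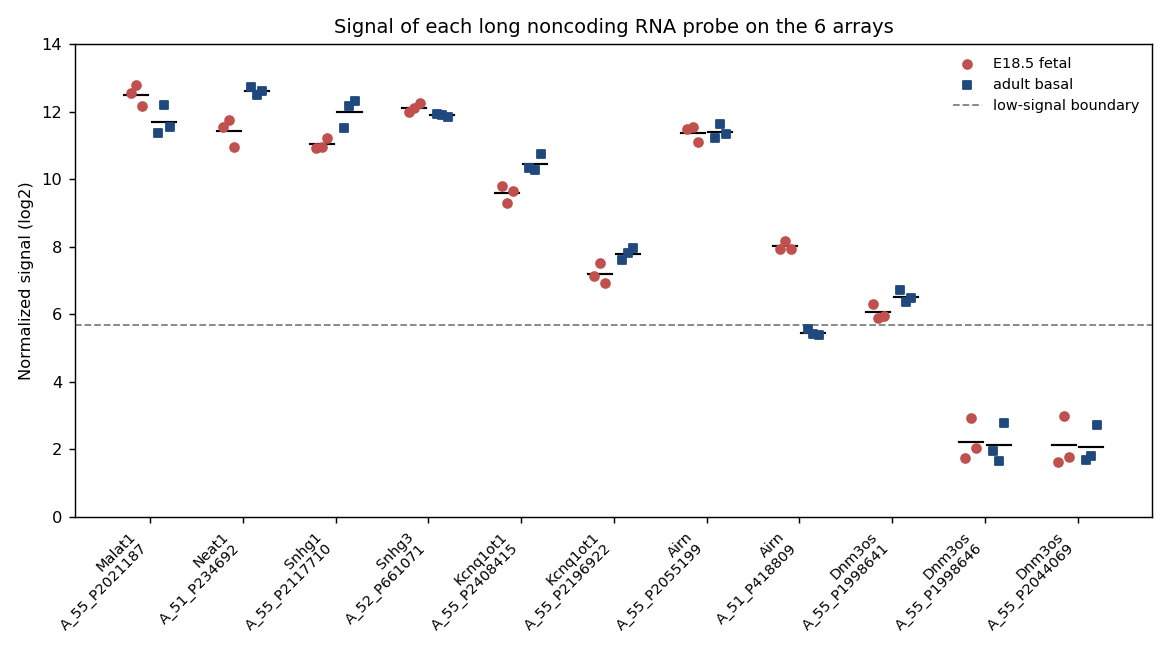
Normalized signal (log2) of each of the 11 probes on the 3 E18.5 fetal arrays (circles) and the 3 adult basal arrays (squares), with a bar at each group mean and a dashed line at the low-signal boundary of 5.69. The second Airn probe is the only one whose group means differ by more than 2 on this scale, and the last 2 Dnm3os probes lie far below the boundary in both groups.

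Malat1 and Neat1, which lie next to each other on chromosome 19, had log2 fold changes of opposite sign. Malat1 (A_55_P2021187) measured 12.54, 12.78 and 12.17 in fetal replicates 1 to 3 and 11.37, 12.18 and 11.55 in adult basal replicates 1 to 3. The fetal values were the higher ones on the whole, but fetal replicate 3 lay just below adult basal replicate 2, so the groups overlapped. The means were 12.50 ± 0.31 and 11.70 ± 0.43 (SD, n = 3 each). This gave a log2 fold change of 0.80 (SE 0.25, 95% interval 0.22 to 1.38), with a Holm-adjusted p of 1 and a Benjamini-Hochberg p of 0.031 in limma. The difference was 1.09 on slide 1 and 0.30 on slide 2, where the highest adult basal array lay.

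Neat1 (A_51_P234692) measured 11.54, 11.75 and 10.96 in fetal cells and 12.73, 12.48 and 12.60 in adult basal cells. All adult basal values were above all fetal values, and the fetal arrays were the more scattered, with replicate 3 the lowest. The means were 11.42 ± 0.41 and 12.60 ± 0.12 (SD, n = 3 each), a 2.27-fold difference. On the log2 scale this was −1.18 (SE 0.21, 95% interval −1.67 to −0.70), with a Holm-adjusted p of 1 and a Benjamini-Hochberg p of 0.0026 in limma. On the 2 slides the differences were −1.13 and −1.12.

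Taken within each array, the log2 value of Malat1 minus that of Neat1 was 1.01, 1.03 and 1.21 in fetal cells and −1.36, −0.30 and −1.05 in adult basal cells. The 2 groups did not overlap, and their means differed by 1.98. Only the change in this quantity between groups has a meaning, since the probes respond differently. The two-sided exact permutation p was 0.1, which is the smallest that 3 against 3 arrays can give. Of the genes nearby, Frmd8 had a log2 fold change of −0.02 (SE 0.12), of which 4 of the alternatives tried turned the sign. Ltbp3 had −0.35 (0.08 by a second probe), Slc25a45 −0.16 and Tigd3 1.45, and none of these was called.

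The 2 snoRNA hosts also had values of opposite sign, although that of Snhg3 did not pass the test. Snhg1 (A_55_P2117710), which holds 8 snoRNA genes and lies between Slc3a2 and Wdr74, measured 10.93, 10.95 and 11.21 in fetal cells and 11.51, 12.15 and 12.32 in adult basal cells. All adult basal values were higher, and adult basal replicate 1 lay nearest to the fetal arrays. The means were 11.03 ± 0.16 and 11.99 ± 0.43 (SD, n = 3 each). The log2 fold change was −0.96 (SE 0.22, 95% interval −1.48 to −0.45), just under the 2-fold limit, with a Holm-adjusted p of 1 and a Benjamini-Hochberg p of 0.0088. It was −0.98 on slide 1 and −1.07 on slide 2.

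Snhg3 (A_52_P661071), which holds 2 snoRNA genes, Snora73a and Snora73b, measured 11.99, 12.09 and 12.26 in fetal cells and 11.93, 11.91 and 11.83 in adult basal cells. The groups did not overlap but were close, with means of 12.11 ± 0.14 and 11.89 ± 0.05 (SD, n = 3 each). The log2 fold change was 0.22 (SE 0.11, 95% interval −0.04 to 0.48), which did not pass any criterion used (unadjusted p = 0.081 in limma). The interval leaves out a difference as large as that of Snhg1 in either direction. The within-array difference, Snhg3 minus Snhg1, was 1.08 ± 0.05 in fetal and −0.10 ± 0.47 in adult basal cells (SD, n = 3 each), a change of 1.19 with a two-sided exact permutation p of 0.1, again the smallest possible. None of the snoRNAs nested in these hosts matched a probe.

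The neighbours of the 2 hosts did not share 1 pattern. Slc3a2, the heavy chain of several amino acid transporters and the gene beside Snhg1, measured 14.29, 14.01 and 14.24 in fetal cells and 17.33, 17.48 and 17.45 in adult basal cells. Its log2 fold change of −3.24 (SE 0.12, Holm-adjusted p = 0.00071 in limma) made it the 1 called gene among the 12 neighbours tested, of which 3 passed Benjamini-Hochberg with the 2-fold limit in the fetal and 1 in the adult basal direction. The shares of all genes in either direction were 8.40% and 29.4% by these rules. Wdr74, a ribosome biogenesis factor on the other side of Snhg1, had −0.51 and was not called. Beside Snhg3, Rcc1, the nucleotide exchange factor of Ran, had 1.27 (Holm-adjusted p = 1, Benjamini-Hochberg adjusted p = 0.00046), Phactr4 had 0.08 and Trnau1ap had −0.16. Snhg12, another snoRNA host, lies beyond Trnau1ap and had −2.11, the other sign from Snhg3. It was not called and is counted with the host genes, not with these 12 neighbours.

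Of 26 host genes listed, 16 had a probe and all 16 were tested. None was called in either direction with Holm, and 4 passed Benjamini-Hochberg with the 2-fold limit, all 4 higher in adult basal cells. This is 4 of 16, where 29.4% of all genes passed the same rule in either direction. Snhg12 had the largest difference (−2.11, SE 0.31), followed by Snhg16 (−1.51, SE 0.24), Tnpo2 (−1.45, SE 0.17) and Snhg18 (−1.28, SE 0.13). Their Benjamini-Hochberg p in limma were 0.0010, 0.0017, 0.00037 and 0.00015. Snhg12 measured 12.15, 12.35 and 12.46 in fetal cells and 13.67, 14.77 and 14.83 in adult basal cells, with adult basal replicate 1 the lowest of its group, as it was for Snhg1. Snhg5 (−0.89), Snhg7 (−0.76), Eif4a2 (−0.63), Snhg17 (−0.49) and Snhg6 (−0.35) also had negative values and did not pass. Nop56, itself a core protein of snoRNA particles, had the largest positive value (0.88, SE 0.12), above Taf1d (0.68), Cwf19l1 (0.47), Dancr (0.31), Snhg3 (0.22) and Snhg10 (0.08). The median of the 16 was −0.56, where that of all tested genes was −0.04. Of 14 genes of proteins of the snoRNA particles, none was called, 1 passed Benjamini-Hochberg with the 2-fold limit in the fetal direction, and their median was 0.61. Of 23 translation genes whose messages carry the 5′ terminal oligopyrimidine tract that many snoRNA hosts share, none was called by its brightest probe, with Holm or with Benjamini-Hochberg and the 2-fold limit, and their median was 0.05. Of 5 tested probes of Npm1, named after its values were seen, 1 was called (2.55). Of 16 factors of nonsense-mediated decay, the pathway that degrades spliced snoRNA host transcripts, none was called, 2 passed Benjamini-Hochberg with the 2-fold limit in the fetal and 1 in the adult basal direction, and the median was 0.17.

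For each member, the genes with the most similar pattern were taken as those with the smallest root mean squared difference of centred log2 values over the 6 arrays. The gene nearest to Snhg1 was Snhg5, with a difference of 0.054 and r = 0.998 over 6 arrays. Snhg5 had means of 8.94 ± 0.16 and 9.83 ± 0.37 (SD, n = 3 each), and its arrays had the same order within both groups as those of Snhg1. Nearest to Neat1 was Krt19, a keratin of luminal cells, at 0.118 (r = 0.983), nearest to Malat1 was Zfp457 at 0.109 (r = 0.978), and nearest to Snhg3 was Ccnq at 0.027 (r = 0.982). Kcnq1ot1 was nearest to Btbd7 (0.091), the bright Airn probe to Lefty2 (0.039), and Dnm3os to E330014E10Rik (0.054). These values describe 6 arrays that share 1 normalization and were picked from all tested genes, so no test goes with them.

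**Figure D2:**
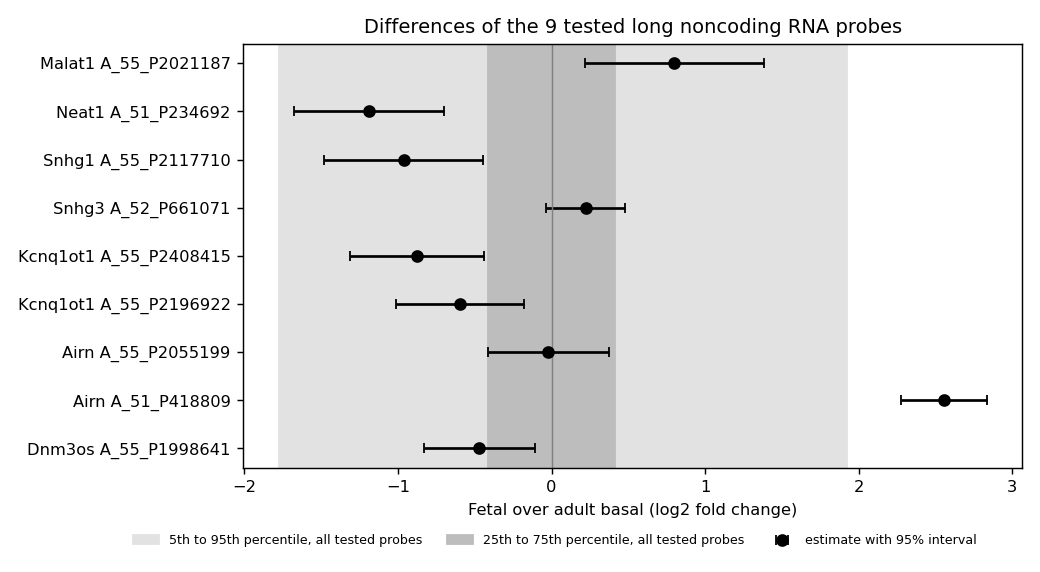
Log2 fold change of fetal over adult basal cells for each of the 9 tested probes, with the 95% interval from limma, over bands that hold the 25th to 75th and the 5th to 95th percentile of all 37830 tested probes. The second Airn probe lies outside the wider band, which runs from −1.77 to 1.92, and the other 8 lie inside it.

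The imprinted antisense RNAs were measured by 2 probes each. Kcnq1ot1 starts within the potassium channel gene Kcnq1, and its silenced neighbours include the growth restraining genes Cdkn1c and Phlda2. Its brighter probe (A_55_P2408415) measured 9.80, 9.28 and 9.64 in fetal cells and 10.33, 10.27 and 10.74 in adult basal cells. All adult basal values were higher, with fetal replicate 2 the lowest array. This gave a log2 fold change of −0.88 (SE 0.18, 95% interval −1.31 to −0.44), with a Holm-adjusted p of 1 and a Benjamini-Hochberg p of 0.0062. The dimmer probe (A_55_P2196922) measured 7.15, 7.50 and 6.92 in fetal cells and 7.59, 7.80 and 7.97 in adult basal cells, again without overlap. Its log2 fold change was −0.60 (SE 0.18, 95% interval −1.01 to −0.18, Benjamini-Hochberg adjusted p = 0.027 in limma). The probes had the same direction, and neither was called.

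Genes around Kcnq1ot1 differed in both directions. Of 12 genes of its domain, all 12 were tested, 2 were called higher in fetal cells, 2 higher in adult basal cells, and 8 were not called. Of all genes, 8.40% were called and 29.4% passed Benjamini-Hochberg with the 2-fold limit, in either direction. Cdkn1c, an inhibitor of cyclin-dependent kinases expressed from the maternal copy, measured 14.24, 14.33 and 14.36 in fetal cells and 8.46, 8.03 and 8.43 in adult basal cells, a log2 fold change of 6.0 (SE 0.14, Holm-adjusted p = 3.4e-05). Slc22a18, a transporter gene, was also higher in fetal cells (2.08, SE 0.11, Holm-adjusted p = 0.0090). Ascl2, a transcription factor, and Osbpl5, a lipid transfer protein, were higher in adult basal cells (−1.82 and −1.80, Holm-adjusted p = 0.044 and 0.022 in limma). The calls of Ascl2 and Osbpl5 were lost when any 1 of the 6 arrays was left out (Holm-adjusted p between 0.132 and 0.682 and between 0.0769 and 0.400), and that of Slc22a18 for 5 of the 6 (up to 0.209), while Cdkn1c kept its call. With the slide as a block, Ascl2, Osbpl5 and Slc22a18 were not called (Holm-adjusted p = 0.188, 0.139 and 0.0743), and Cdkn1c was (0.00028). Phlda2 (3.69) and Kcnq1 itself (3.04) were not called, and in adult basal cells both were well above background on 1 of 3 arrays only. Both passed Benjamini-Hochberg with the 2-fold limit (adjusted p = 0.00020 and 0.0090 in limma), by which 4 genes of the domain were higher in fetal and 2 in adult basal cells. The other 6, Cd81, Tssc4, Trpm5, Nap1l4, Tspan32 and Th, had log2 fold changes between −0.32 and 0.35 by their brightest probe. A second probe of Nap1l4 had the other sign (−0.04), and a second probe of Tspan32 had 1.17 and was not called. The sign of the brightest Tspan32 probe turned when 1 of 2 arrays was left out. These arrays do not tell the parental copies apart, so imprinting was not measured.

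Airn runs antisense to Igf2r on chromosome 17, and its 2 probes gave different results. The brighter probe (A_55_P2055199) measured 11.48, 11.55 and 11.09 in fetal cells and 11.23, 11.62 and 11.33 in adult basal cells. The groups were interleaved, and the log2 fold change was −0.02 (SE 0.17, 95% interval −0.42 to 0.37). The dimmer probe (A_51_P418809) measured 7.92, 8.18 and 7.92 in fetal cells and 5.56, 5.42 and 5.37 in adult basal cells. All fetal values were far above all adult basal values, which lay under the low-signal boundary of 5.69 yet stood clear of background on each of the 3 arrays. The means were 8.00 ± 0.15 and 5.45 ± 0.10 (SD, n = 3 each), a 5.88-fold difference. With normexp background correction the log2 fold change was smaller, at 1.58. The log2 fold change was 2.56 (SE 0.12, 95% interval 2.28 to 2.83, Holm-adjusted p = 0.0040 in limma), and it was 2.46 on slide 1 and 2.63 on slide 2. Before normalization, the signal of this probe was between 255 and 337 on fetal arrays and between 35.7 and 46.8 on adult basal arrays. The Holm-adjusted p was 0.0535 without adult basal replicate 3, 0.0772 without fetal replicate 1 and 0.0570 without fetal replicate 3, so the call was lost when any of these arrays was left out.

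The within-array difference between the Airn probes, dimmer minus brighter, changed by 2.58 between groups (fetal mean −3.37 ± 0.19, adult basal mean −5.94 ± 0.27, SD, n = 3 each), with a two-sided exact permutation p of 0.1, the smallest possible. Both probes carry the same transcript accession, and where each lies on that transcript is unknown here, so the values do not tell which part of Airn differed. With the mean of the 2 probes the log2 fold change of Airn was 1.27 (Holm-adjusted p = 0.569 in limma). A direction for Airn as a whole therefore depends on the probe. Igf2r, the scavenger receptor for insulin-like growth factor II, measured 13.19, 13.13 and 12.93 in fetal cells and 11.28, 11.15 and 11.35 in adult basal cells. It was called higher in fetal cells, with a log2 fold change of 1.82 (SE 0.12, Holm-adjusted p = 0.034), but without any 1 of the 6 arrays the Holm-adjusted p was between 0.156 and 0.552, and with the slide as a block it was 0.0895. Mas1, another listed gene of the region, had 0.07 and was not called, and its sign turned without adult basal replicate 1. Of the 6 listed genes of the region, 3 had a probe but did not pass the low-signal filter.

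Of 14 genes of chromatin proteins known to work with imprinted noncoding RNAs, 2 were called, both higher in fetal cells: Ezh2, the methyltransferase of Polycomb complex 2 (2.21, SE 0.11, Holm-adjusted p = 0.0054), and Dnmt3b, a de novo DNA methyltransferase (1.96, SE 0.12, Holm-adjusted p = 0.026). Of 3 tested probes of Dnmt3b, the other 2 were not called, and the lowest had 0.58. Ezh2 lost its call without 5 of the 6 arrays in turn (Holm-adjusted p up to 0.118) and Dnmt3b without any 1 of them (0.151 to 0.353) and with the slide as a block (0.163). The median of the list was 0.65, and 5 of the 14 passed Benjamini-Hochberg with the 2-fold limit, all higher in fetal cells, where 8.40% of all genes were called with Holm and 29.4% passed Benjamini-Hochberg with that limit in either direction.

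Dnm3os was measured near the low-signal boundary of 5.69. Its 1 tested probe (A_55_P1998641) measured 6.31, 5.89 and 5.95 in fetal cells and 6.70, 6.38 and 6.48 in adult basal cells. The adult basal values were all higher, although adult basal replicate 2 lay close to fetal replicate 1. This gave a log2 fold change of −0.47 (SE 0.15, 95% interval −0.83 to −0.11), with a Holm-adjusted p of 1 and a Benjamini-Hochberg p of 0.039. The difference was −0.28 on slide 1 and −0.46 on slide 2. The other probes of this gene (A_55_P1998646 and A_55_P2044069) had signals of at most 8.62 before normalization and no measurable difference.

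Dnm3 and Twist1, the host gene and a transcription factor known to drive Dnm3os, did not pass the low-signal filter. Of related transcription factors, Prrx2 was higher in fetal cells (3.26, SE 0.18, Holm-adjusted p = 0.013) and Twist2 had −2.20 and was not called (Benjamini-Hochberg adjusted p = 0.0011). Prrx1, a mesenchymal homeobox gene, was too dim to measure on the fetal arrays (mean 2.67) and measured 9.41, 10.48 and 10.11 in adult basal cells. It was at least 70.4-fold lower in fetal cells (Holm-adjusted p = 0.0498 in limma), a call that was lost when any 1 array was left out (0.066 to 0.668) and with the slide as a block (0.220). Prrx2 lost its call without 5 of the 6 arrays in turn (up to 0.194). This bound sets the adult basal mean against the mean of the lowest well-measured signal of each fetal array, or the probe's own signal where that is higher. Of 9 fibroblast markers tested, 4 passed Benjamini-Hochberg with the 2-fold limit and 2 were called, all of them higher in adult basal cells (called were Pdgfrb −4.34, Dcn −3.78, the latter with a Holm-adjusted p of up to 0.129 when 1 array was left out). The summed signal over the 10 listed fibroblast genes was 19186, 23149 and 30014 in adult basal replicates 1 to 3 and 7075, 7139 and 8752 in fetal replicates 1 to 3, the brightest probe being that of Dcn in adult basal and of Col1a2 in fetal cells, and Dpt was not well above background in fetal cells. Their part in the Dnm3os and Prrx1 values was not tested. Zbtb37, a gene near Dnm3os, had −0.77 and was not called.

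Transcripts of several partner proteins of Neat1 were higher in fetal cells, where the mean of Neat1 itself was lower. No protein was measured, and the values of this paragraph are of the transcripts that encode the named proteins. Of 20 paraspeckle proteins, all tested, 3 were called and all 3 were higher in fetal cells, against a background of 4.49% of genes called in that direction and 3.91% in the other. With Benjamini-Hochberg and the 2-fold limit, 9 were higher in fetal and none in adult basal cells, where 29.4% of all genes passed in either direction. Rbmx, an RNA binding protein of nuclear particles, measured 11.57, 11.49 and 11.85 in fetal cells and 8.08, 7.77 and 7.49 in adult basal cells (log2 fold change 3.86, SE 0.18, Holm-adjusted p = 0.0037). Pspc1, a core paraspeckle protein, measured 10.85, 10.88 and 11.03 against 7.78, 7.44 and 7.15 (3.46, SE 0.17, Holm-adjusted p = 0.0059). Hnrnpa1, a splicing repressor, had 2.17 (SE 0.12, Holm-adjusted p = 0.012), and its second tested probe, at 1.14, was not called. Pspc1 lost its call without 4 of the 6 arrays in turn (Holm-adjusted p up to 0.121), and Rbmx without fetal replicate 1 or 2 (up to 0.084). For Hnrnpa1 no values with arrays left out are given here, so its call is not known to be steadier. Hnrnpa1, Sfpq and Nono are named here after their values were seen. Sfpq and Nono, which bind Neat1 and are needed for paraspeckles to form, had 3.36 (SE 0.25, Holm-adjusted p = 0.097) and 1.14 (SE 0.10, Holm-adjusted p = 0.36), and the second tested probe of Sfpq, at 2.38, was called. The median of the 20 was 0.82. Of 20 nuclear speckle and SR proteins, the environment of Malat1, none was called by its brightest probe, 2 passed Benjamini-Hochberg with the 2-fold limit in the fetal direction, and the median was 0.36. A second probe of Srsf2, named after its value was seen, was called (1.88), while its brightest probe had 0.12.

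**Figure D3:**
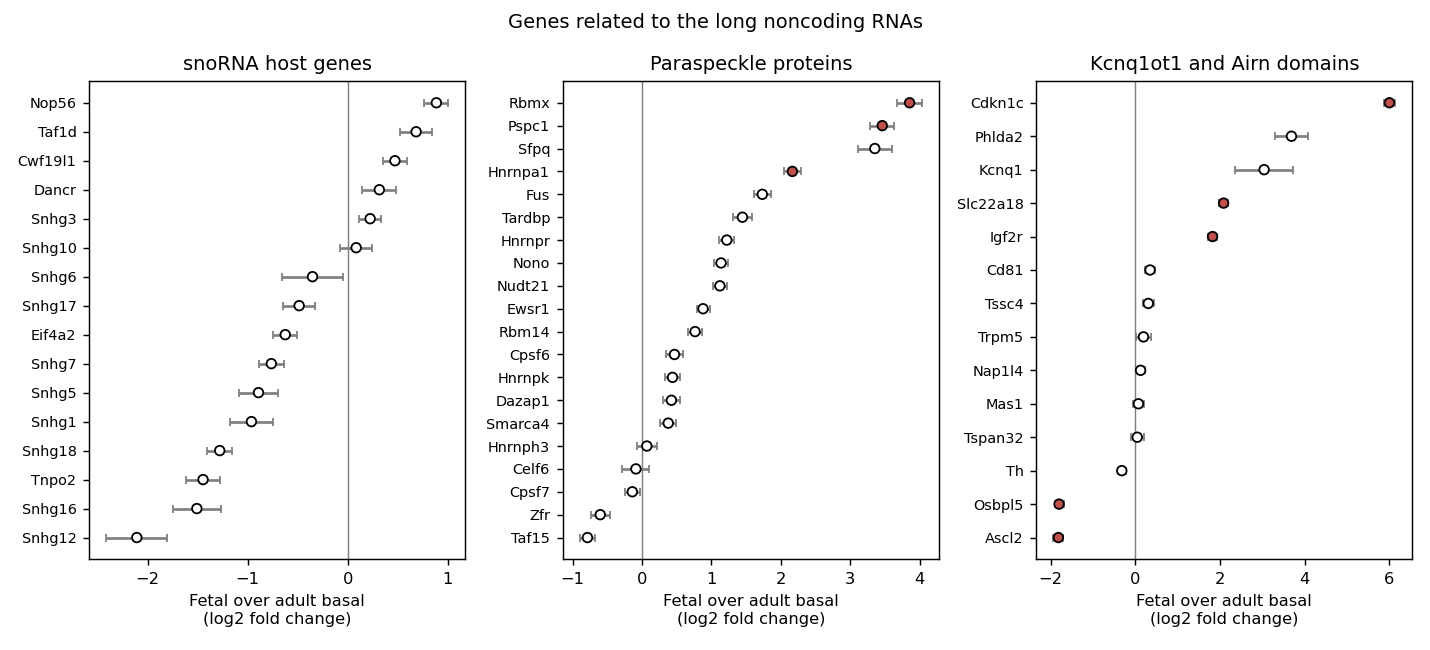
Log2 fold change of fetal over adult basal cells, with SE bars, for 16 snoRNA host genes (Snhg1 and Snhg3 included), 20 genes of paraspeckle proteins and 14 tested genes around Kcnq1ot1 and Airn, 1 probe a gene, where filled points passed the Holm criterion with a 2-fold difference. No snoRNA host is filled, the filled genes of paraspeckle proteins lie to the right of 0, and the filled domain genes lie on both sides.

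Among other long noncoding RNAs, larger differences were seen. Of 33 listed, 17 had a probe and 12 were tested, of which 2 were called higher in fetal and 1 in adult basal cells (3 and 3 with Benjamini-Hochberg and the 2-fold limit). The shares of all genes in either direction were 8.40% and 29.4% by these rules. Meg3, a maternally expressed imprinted RNA, measured 14.30, 14.36 and 13.89 in fetal cells and 9.78, 9.73 and 9.88 in adult basal cells (log2 fold change 4.39, SE 0.15, Holm-adjusted p = 0.00044), and all 3 of its tested probes were called. Mirg, a microRNA host of the same imprinted region, had 4.20 (SE 0.13, Holm-adjusted p = 0.00025). Mir22hg, the host of miR-22, had −3.35 (SE 0.20, Holm-adjusted p = 0.021). A second probe of Pvt1, named after its value was seen, was also called (−2.11), and its brightest probe was not (−0.91). Mir22hg lost its call without 5 of the 6 arrays in turn (up to 0.271). All 9 tested probes of the chosen genes had smaller absolute differences than these 3.

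Gene groups for hypoxia, p53, proliferation, immediate early and heat shock responses were set beside the members. For scale, 8.40% of all genes were called and 29.4% passed Benjamini-Hochberg with the 2-fold limit, in either direction. Of 12 hypoxia target genes, 9 were higher in adult basal cells and none in fetal cells, led by Adm (−5.34) and Car9 (−5.23). Of 11 tested p53 target genes, 3 were higher in adult basal cells, among them Gdf15 (−7.33) and Phlda3 (−2.76). With Benjamini-Hochberg and the 2-fold limit, 5 p53 targets were higher in adult basal cells and 1 in fetal cells. Of 12 proliferation genes, 9 were higher in fetal cells, and among these 9 the largest differences were those of Cdk1 (6.77) and Birc5 (6.20). Of 3 tested probes of Cdk1, 2 were called and the lowest had 0.96. By Benjamini-Hochberg with the 2-fold limit, 11 proliferation genes were higher in fetal cells and none in adult basal cells, and 10 hypoxia targets were higher in adult basal cells and 1 in fetal cells. Of 12 immediate early genes, 1 was called, Fosb (2.36), which was higher in fetal cells, and 9 of the 12 passed Benjamini-Hochberg with the 2-fold limit, all 9 higher in fetal cells. Of 9 tested heat shock genes none was called, and 1 passed Benjamini-Hochberg with the 2-fold limit. The calls of Cdk1, Phlda3 and Fosb were lost when some of the arrays were left out in turn (4, 3 and 5 of the 6, with Holm-adjusted p up to 0.220, 0.121 and 0.139). Their part in the values of Neat1, Snhg1 and the other members was not tested.

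**Figure D4:**
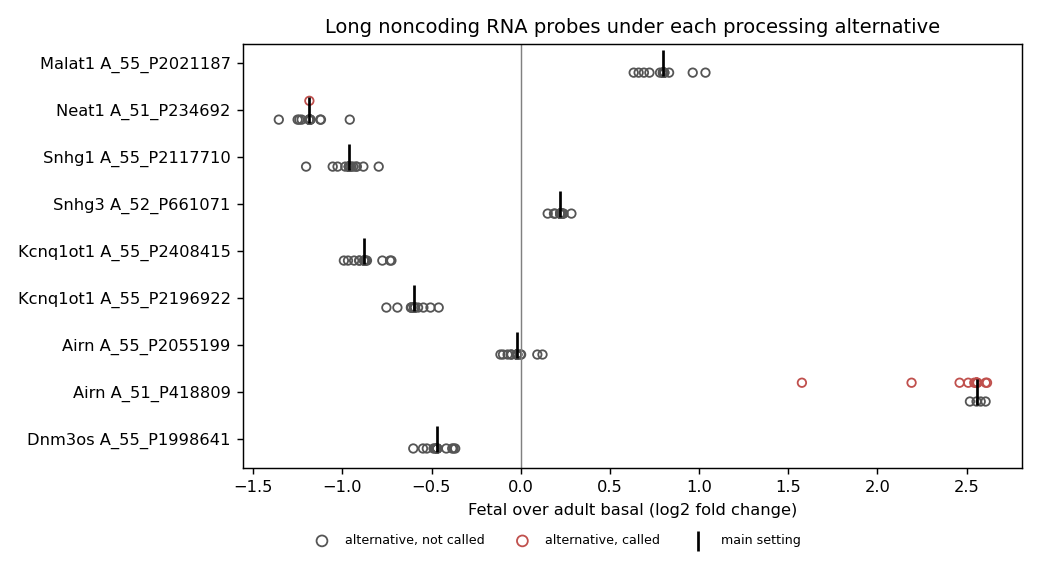
Log2 fold change of fetal over adult basal cells for the 9 tested probes under the main processing (vertical bar) and under each of up to 17 alternatives (circles, red and set above the line where the probe was called, grey and set below it where it was not). Red circles appear for the dimmer Airn probe and, with Benjamini-Hochberg adjustment, for Neat1. The probes kept their sign under every alternative that could be fitted, except the bright Airn probe, which lies on both sides of 0.

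Across the alternatives, the log2 fold change of Neat1 ranged from −1.36 to −0.96, that of Snhg1 from −1.20 to −0.80, that of Malat1 from 0.63 to 1.04 and that of Snhg3 from 0.15 to 0.28. The probes of Kcnq1ot1 ranged from −0.99 to −0.72 and from −0.75 to −0.46, and the tested Dnm3os probe from −0.60 to −0.37. The dimmer Airn probe ranged from 1.58, with another background correction, to 2.61, and the brighter one from −0.11 to 0.12.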

How the data were processed

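Arrays from 3 E18.5 fetal and 3 adult basal samples were grouped by their labels. The labels describe Low Input Quick Amp labelling with T7-primed cDNA, and the methods name the exon (WT) version of the kit; the priming decides how transcripts without a poly(A) tail are seen. The authors deposited spot intensities from Agilent Feature Extraction 11.0.1.1, background-subtracted and not normalized between arrays, with outlier and background flags for each spot. They also deposited log2 values that they quantile normalized, which were used as an alternative.

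Here, control spots and between 104 and 326 outlier spots per array were left out, the log2 processed signals of each probe were averaged, and quantile normalization was run over the 6 arrays. Probes were matched by accession to RefSeq genes (GRCm38.p6); of 55681 probes, 27235 matched 20660 genes. Those in the lowest of 3 k-means clusters (boundary 5.69) in both groups were removed. Probes with no matched gene were kept, whereas the authors' code dropped probes without an Entrez gene. The 37830 remaining were fitted with limma 3.58.1 (R 4.3.3), without covariates. A call needed a 2-fold difference and a Holm-adjusted p no higher than 0.05. Unless another adjustment is named, "called" means this criterion. List genes were taken by their brightest tested probe. Of all 16091 genes taken this way, 8.40% were called and 29.4% passed Benjamini-Hochberg with the 2-fold limit, in either direction. The counts of every list, the cell type markers included, are to be read beside these shares. The script that fits the model was tested on simulated data. The limma p-values set each group difference against the spread between these samples, with a variance partly shared over all tested probes. The number of arrays limits the precision.

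The members and lists were chosen with earlier results of these data known. All member probes are named. From each list, the 2 called genes in each direction with the largest fold changes are named, with all tested snoRNA hosts and all tested genes of the imprinted domains, the Dnm3os axis and the neighbours, apart from a few that are not reported here. Alternatives covered scaling, background correction, filters, adjustment, variance model, offset, replicate number or slide as a block, and leaving out each array.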

Additional observations from a re-analysis of the deposited data

How the results depend on the processing

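The count of all probes called was 2102. It was 843 without the low-signal filter, 8515 with Benjamini-Hochberg adjustment, 3459 with a trended and robust eBayes, 880 with the replicate number as a block, 1296 with the slide as a block, and between 739 and 1507 when 1 array was left out. The 55 list genes called became 30 without the filter, 117 with Benjamini-Hochberg, 32 with the replicate block, and between 30 and 42 when 1 array was left out. The long noncoding RNA probes called went from 1 to 2 with Benjamini-Hochberg and to 0 with the replicate block (dimmer Airn probe, Holm-adjusted p = 0.11), and were 0 or 1 with 1 array left out. The genes called by their brightest probe went from 0 to 1 with Benjamini-Hochberg only. The same replicate number did not mark samples that deviate together (correlations −0.04, 0.07 and −0.01), so the numbers only name samples. The log2 fold change of the brighter Airn probe turned to 0.0022 with 75th percentile scaling, and ranged from −0.11 to 0.12 with 1 array left out. That of Frmd8 turned to 0.033 with normexp and 0.010 with the slide block, and ranged from −0.099 to 0.052. With 1 array left out, Mas1 ranged from −0.025 (no adult basal replicate 1) to 0.20, and Tspan32 from −0.057 (no adult basal replicate 3; −0.0080 with no fetal replicate 1) to 0.18. The cause was not tested. Of the other values of single genes, 1111 kept their direction and side of the threshold, 123 lost the call and 17 gained it. Signals near the low-signal boundary (Dnm3os and the dimmer Airn probe in adult basal cells) limit those values, and 3 arrays a group limit all of them.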
